A study of Mus musculus with 48 samples.

Results

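The 10 genes described here belong to the Notch pathway and were followed across the series. They were chosen by symbol, as 3 receptors (Notch1, Notch2 and Notch3), 3 ligands (Jag1, Jag2 and Dll1) and 4 target genes (Hes1, Hey1, Hey2 and Heyl). All 10 were listed among the 22173 genes counted in gonadal somatic cells, among the 13682 genes of the FPKM table and, by Ensembl identifier, among the 32285 genes of the 10x sample.

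Notch receptors are single-pass membrane proteins that are bound by Jagged and Delta-like ligands on neighbouring cells. Ligand binding leads to cleavage by ADAM proteases and gamma-secretase, and the released intracellular domain joins RBPJ and Mastermind-like proteins on DNA. Hes and Hey genes, which encode basic helix-loop-helix repressors, are the best known targets, and in the mouse ovary the pathway is known for signalling between oocytes and granulosa cells during follicle formation.

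The study looked for small molecules with which female mouse ESCs (embryonic stem cells) take on the character of gonadal somatic cells (GSCs). GSCs were taken from female C57BL/6 gonads of embryonic stages E12.5, E13.5 and E16.5 and from ovaries 6 weeks after birth (P6w), with 2 libraries per stage. The induced cells, labelled with the same strain, came from ESCs given V580, the combination of vitamin C (Vc) and AM580, an agonist of retinoic acid receptor alpha. V580 cells of days 4, 6, 8 and 10 (V580_D4 to V580_D10) were sequenced with 3 libraries each beside 3 libraries of E12.5 female gonads (E12.5_GC), cells given Vc, AM580, V580 or no compound (Con) for 24 h or 48 h with 2 libraries each, and V580_D6 cells as 1 10x sample. The ESC lines had been kept on feeder fibroblasts, which the study's methods say were taken out before induction by how they adhere to a dish, and bulk RNA of a mixed tissue cannot tell fewer cells of a type from less RNA per cell.

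The counts summed to between 12694769 and 22259044 per GSC library, and the depth of the FPKM libraries is unknown. Nothing in the labels says whether replicates came from separate animals or cultures, so the p-values measure the spread between these libraries. Adult granulosa markers summed to 31130 and 31860 CPM (counts scaled to library size with TMM factors) at P6w against at most 256.8 CPM before birth. Most of the P6w sum was Inha, at a mean of 29820 CPM, beside 1250 for Cyp11a1, 310.8 for Cyp19a1 and 103.9 for Fshr. Erythroid markers summed to between 23610 and 24890 CPM at E13.5, between 12660 and 13930 CPM at E12.5 and at most 124.0 CPM at P6w.

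The promoters of Hey2 and Notch1 are shown because their genes, a target and a receptor, took opposite courses from E16.5 to P6w. RefSeq (GRCm38.p6) held a promoter for 7 of the 10 genes, as 250 bases before to 50 bases after a start, with no entry for Hes1, Hey1 and Heyl. The first is at chr10:30842734-30843033 on the minus strand and the second at chr2:26503773-26504072, also on the minus strand. Capitals mark the core of the RBPJ site (TGGGAA or its reverse complement TTCCCA) in Hey2 and the N box (CACNAG or its reverse complement CTNGTG), the element that Hes proteins are known to bind, in Notch1.
Hey2: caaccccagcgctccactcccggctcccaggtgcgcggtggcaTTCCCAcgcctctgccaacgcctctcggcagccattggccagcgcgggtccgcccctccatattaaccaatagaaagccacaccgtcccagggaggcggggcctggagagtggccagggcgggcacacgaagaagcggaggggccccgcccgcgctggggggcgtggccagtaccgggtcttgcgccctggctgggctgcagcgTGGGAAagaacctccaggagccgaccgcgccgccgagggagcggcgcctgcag
Notch1: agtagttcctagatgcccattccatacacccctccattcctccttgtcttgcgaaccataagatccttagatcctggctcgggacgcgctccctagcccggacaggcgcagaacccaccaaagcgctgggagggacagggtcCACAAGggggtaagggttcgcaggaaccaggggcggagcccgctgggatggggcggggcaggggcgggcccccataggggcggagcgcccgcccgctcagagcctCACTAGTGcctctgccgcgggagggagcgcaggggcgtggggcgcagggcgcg
Among the 8 promoters of the 7 genes, only that of Hey2 held the RBPJ core, with 2 matches, 1 at bases -207 to -202 from the start and 1 from base -3 to base 3. Across 32851 RefSeq promoters of this length, 25.6% held the core on either strand. The N box stood in the promoters of Notch1, Notch2, Notch3 and in 1 of the 2 of Dll1, and in 42.5% of all promoters. In Notch1 it was found 3 times, 2 of which overlapped at the start. The E box CACGTG stood in none of the 8 and in 7.15% of all promoters. Such matches describe the letters of the window and no bound site.

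Per kilobase of exon, Hes1 was the most abundant of the 10 genes in E12.5 and E13.5 GSCs, Notch2 at E16.5 and Heyl at P6w. Mean levels at E12.5, as RPKM from the union of GENCODE exons, were 12.7 for Hes1, 8.69 for Hey1, 4.45 for Notch2, 3.24 for Heyl, 1.90 for Notch1 and 1.54 for Notch3, and the other 4 genes lay below 1. At P6w the order had turned, with RPKM of 11.5 for Heyl, 5.63 for Hey2 and 2.39 for Notch2, and 0.605 for Hey1 and 0.425 for Hes1. The plot of CPM by stage shows each library.

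**Figure D1:**
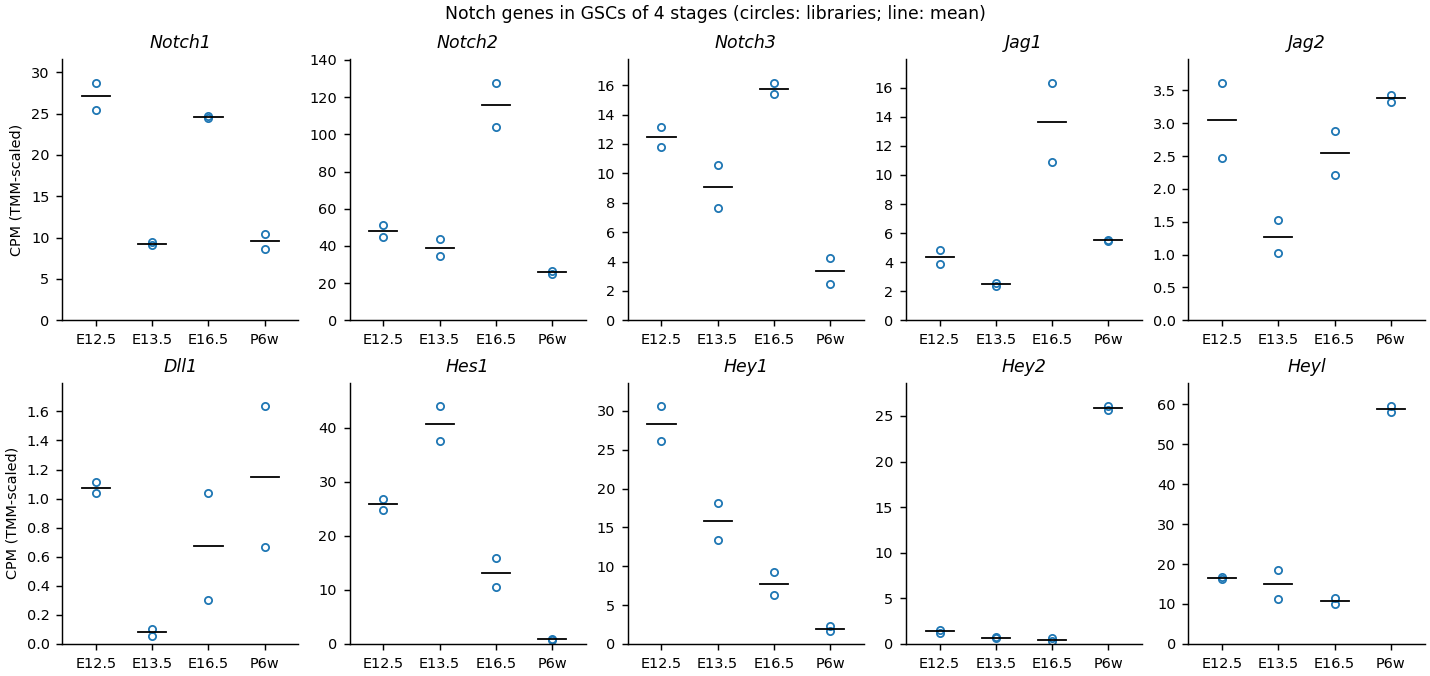
TMM-scaled CPM (y axis, linear, 1 scale per gene) of the 10 Notch genes in GSCs of 4 stages (x axis), with a circle per library and a line at the mean of 2. Hey2 and Heyl stand highest at P6w, Hes1 and Hey1 lowest there, and Notch2 and Jag1 highest at E16.5.

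All 3 receptors were higher at E16.5 than at P6w. Notch1 (chr2:26457903-26516663 on GRCm38, minus strand) stood at 25.5 and 28.7 CPM at E12.5, 9.09 and 9.47 CPM at E13.5, 24.7 and 24.5 CPM at E16.5, and 8.66 and 10.5 CPM at P6w. The E13.5 and P6w libraries of Notch1 lay below all E12.5 and E16.5 libraries. From E12.5 to E13.5 Notch1 fell by 1.54 on the log2 scale (SE 0.18, edgeR quasi-likelihood adjusted p = 1.25e-05), and from E13.5 to E16.5 it rose by 1.40 (SE 0.18, adjusted p = 1.08e-05).

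Notch2 (chr3:98013527-98150361, plus strand) was counted at 51.3 and 44.7 CPM at E12.5, 43.8 and 34.5 CPM at E13.5, 104.0 and 127.7 CPM at E16.5, and 26.8 and 24.8 CPM at P6w. Both E16.5 libraries lay above all others and both P6w libraries below all others. The rise of Notch2 from E12.5 to E16.5 was 1.27 on the log2 scale (SE 0.15, edgeR adjusted p = 1.49e-05), and from E16.5 to P6w it fell by 2.16 (SE 0.16, adjusted p = 2.52e-08). Notch3 (chr17:32120820-32166852, minus strand) stood at 11.8 and 13.1 CPM at E12.5, 7.62 and 10.6 CPM at E13.5, 15.4 and 16.2 CPM at E16.5, and 4.25 and 2.50 CPM at P6w. From E16.5 to P6w the log2 fold changes of the other receptors were -1.36 for Notch1 and -2.22 for Notch3 (edgeR adjusted p = 1.3e-05 and 5.08e-06).

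Among the ligands, Jag1 was highest at E16.5 and Dll1 had its fewest counts at E13.5. Jag1 (chr2:137081456-137116644, minus strand), which encodes a ligand known from vascular smooth muscle and many epithelia, stood at 4.86 and 3.90 CPM at E12.5, 2.54 and 2.40 CPM at E13.5, 10.9 and 16.3 CPM at E16.5, and 5.56 and 5.49 CPM at P6w. Its E16.5 libraries lay above all others, and the log2 fold change from E13.5 to E16.5 was 2.46 (SE 0.28, edgeR adjusted p = 4.3e-06). Jag2 (chr12:112907819-112929776, minus strand) was lower, at 3.61 and 2.47 CPM at E12.5, 1.52 and 1.03 CPM at E13.5, 2.21 and 2.88 CPM at E16.5, and 3.43 and 3.33 CPM at P6w. Only its E13.5 libraries stood apart from the others, with a log2 fold change from E12.5 of -1.24 (SE 0.39, edgeR adjusted p = 0.0158). Interstitial markers summed to 3229 and 2938 CPM at E16.5 and to at most 968.6 CPM at the other stages. Of these, Pdgfra stood at means of 46.4 CPM at E12.5 and 40.3 CPM at E16.5. Germ cell markers, mostly Dazl, summed to 66.8 and 77.5 CPM at E16.5 and to at most 26.6 CPM at the other stages. The part of these cells in the levels of Notch2 and Jag1 was not tested.

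Dll1 (chr17:15367354-15376872, minus strand) had 24 and 21 counts at E12.5, 2 and 1 counts at E13.5, 7 and 17 counts at E16.5, and 20 and 8 counts at P6w. The E13.5 libraries lay below all others, and the other stages overlapped. Summed over libraries, 3 counts at E13.5 against 45 at E12.5 gave a ratio of 0.0749 after scaling (95% interval 0.0149 to 0.233, for counting error only), and the edgeR adjusted p of that difference was 0.00521.

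Of the 4 targets, Hes1 and Hey1 were lowest at P6w, and Hey2 and Heyl were highest there. Hes1 (chr16:30064384-30067796, plus strand), which keeps progenitors from differentiating in many tissues, stood at 26.8 and 24.8 CPM at E12.5, 37.4 and 43.9 CPM at E13.5, 10.6 and 15.9 CPM at E16.5, and 0.980 and 0.749 CPM at P6w. The stages did not overlap. The fall from E12.5 to P6w was -4.89 on the log2 scale (SE 0.29, edgeR adjusted p = 2.23e-09). Hey1 (chr3:8663359-8667256, minus strand), a target that is well known in endothelium, stood at 26.2 and 30.6 CPM at E12.5, 13.4 and 18.2 CPM at E13.5, 6.28 and 9.24 CPM at E16.5, and 2.29 and 1.67 CPM at P6w. Its stages did not overlap either, and each later stage was lower, with a log2 fold change from E12.5 to P6w of -3.84 (SE 0.28, edgeR adjusted p = 2.24e-08).

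Hey2 (chr10:30832359-30842801, minus strand), the gene of the first promoter above and a repressor known from arterial cells and heart, was counted at 1.16 and 1.58 CPM at E12.5, 0.610 and 0.742 CPM at E13.5, 0.649 and 0.306 CPM at E16.5, and 25.7 and 26.1 CPM at P6w. The raw counts behind the P6w values of Hey2 were 314 and 313. From E16.5 to P6w it rose by 5.67 on the log2 scale (SE 0.34, edgeR adjusted p = 1.91e-09). Heyl (chr4:123233556-123249875, plus strand), which encodes another Hey repressor, stood at 16.7 and 16.4 CPM at E12.5, 11.2 and 18.5 CPM at E13.5, 10.0 and 11.4 CPM at E16.5, and 58.0 and 59.4 CPM at P6w. Its E13.5 libraries enclosed those of E12.5, and its rise from E16.5 to P6w was 2.46 on the log2 scale (SE 0.21, edgeR adjusted p = 1.06e-07). Beside these values, endothelial markers summed to 433.6 and 441.2 CPM at E12.5 and to 298.5 and 287.9 CPM at E13.5. Their sums were 286.8 and 320.9 CPM at E16.5 and 107.7 and 116.0 CPM at P6w, with no marker at 0. Markers of smooth muscle and pericytes, cells in which Heyl and Notch3 are known, went both ways from E12.5 to P6w, with mean CPM of 74.2 and 285.6 for Acta2, 19.3 and 24.5 for Tagln, 43.1 and 12.6 for Cspg4, 40.4 and 13.9 for Myh11 and 4.65 and 3.76 for Rgs5. The part of these cell types in the results was not tested.

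Counted at an edgeR adjusted p below 0.05, 7 of the 10 genes differed between E13.5 and E12.5, against 45.9% of the 16398 genes tested. Hes1 rose (23.8% of all genes), and 6 genes, Notch1, Jag1, Jag2, Dll1, Hey1 and Hey2, fell (22.1% of all genes). From E12.5 to E16.5, 6 differed (background 37.6%), of which Notch2 and Jag1 rose (20.5%) and Hes1, Hey1, Hey2 and Heyl fell (17.1%). From E12.5 to P6w, 7 differed (52.9%), of which Hey2 and Heyl rose (25.4%) and Notch1, Notch2, Notch3, Hes1 and Hey1 fell (27.5%). From E13.5 to E16.5, 8 differed (54.1%), 6 of them higher (28.7%) and Hes1 and Hey1 lower (25.4%). From E16.5 to P6w, 8 differed (56.1%), with Hey2 and Heyl higher (26.3%) and 6 lower (29.8%). All 10 genes passed the filter on low counts. These comparisons share stages, and their counts are not independent of each other.

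The comparison of E13.5 with E12.5 moved with gene length. Over 16169 genes with a length, the log2 fold change ran with exon length at a Spearman rho of -0.494, a value across genes, which are not independent replicates, and the median of the 6353 genes over 5 kb was -0.41 against 0.03 for all tested genes. The receptors are the longest of the 10 genes, with 14.2 kb of exons in Notch1, 10.8 kb in Notch2 and 8.09 kb in Notch3, and Hes1 is the shortest with 2.04 kb. With each library's trend along length taken into the fit, 3 genes were called, namely Notch1 at -0.84 (edgeR adjusted p = 0.00223), Dll1 at -3.59 (adjusted p = 0.00837) and Hey1 at -1.0 (adjusted p = 0.00227). Hes1 then stood at 0.19 (adjusted p = 0.433), Jag1 at -0.58 (adjusted p = 0.135), Jag2 at -0.90 (adjusted p = 0.0862) and Hey2 at -0.92 (adjusted p = 0.0758). Without single libraries this count of 7 was 3 without the second E13.5 library, 4 without the first and 4 without the second E12.5 library, and 5 without the first E12.5 library.

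**Figure D2:**
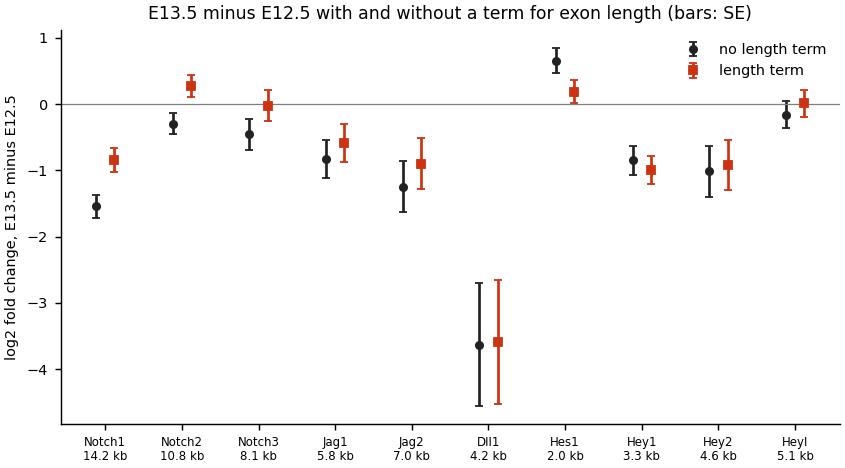
Log2 fold change from E12.5 to E13.5 (y axis, bars give the SE) of each Notch gene (x axis, with its exon length in kb), without and with a term for exon length. With the term, Notch1 moves from -1.54 to -0.84 and Hes1 from 0.66 to 0.19, and Dll1 and Hey1 stand at -3.59 and -1.0 with it.

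The step from E13.5 to E16.5 moved with length in the opposite direction, at a Spearman rho of 0.335 across genes. The median of genes over 5 kb was 0.422 there, against 0.0575 for all tested genes. The receptors, Jag1 and Jag2, all over 5 kb, rose in it, as did Dll1 at 4.22 kb. Hes1 and Hey1, the shortest members, fell, and Heyl, at 5.11 kb, was not called. The fold changes given for the step from E13.5 to E16.5 are without the length term. In the comparisons that reach P6w, the length term left the same numbers of calls, 7 against E12.5 and 8 against E16.5. Lane and stage were partly confounded, since by the labels lane 5 held E12.5, E13.5 and 1 library of E16.5, and lane 1 held P6w with the other E16.5 library. Among the replicates, the E16.5 pair was the furthest apart, with a chi-square over genes of 37.9 per degree of freedom against 6.02 to 6.93 at the other stages. With a lane term, 7 of the 10 genes were called from E12.5 to P6w and 8 from E16.5 to P6w, and Hey2 stood at 5.30 and 6.37 on the log2 scale.

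Of 42 other genes of the pathway, 39 were tested in the stages. From E12.5 to P6w, 12 rose and 15 fell (25.4% and 27.5% of all genes). Their median log2 fold change, over the 39, was -0.19 against -0.04 for all genes. Among the ligands, Dll4, known from arterial endothelium, fell by 3.48 on the log2 scale and Dlk1, a non-canonical ligand of fetal stroma, fell by 5.04, while Dlk2 rose by 2.44. Among the modifiers, the Fringe sugar transferases Lfng and Mfng stood at -1.93 and -2.25, and the feedback target Nrarp at -3.21. The receptor Notch4, known from endothelium, stood at -2.31. Several gamma-secretase genes were higher, with Aph1a at 2.90, Psen2 at 1.54 and Ncstn at 1.44. From E12.5 to E13.5, 5 of the 39 rose and 14 fell, where 23.8% and 22.1% of all genes did. Maml1, Maml2 and Maml3 of the nuclear complex stood at -1.20, -1.99 and -0.72 and Rbpj at -0.74. Fold changes in this step ran with gene length, as described above, and these values are without the length term. From E12.5 to E16.5, 8 rose and 8 fell (20.5% and 17.1% of all genes). From E13.5 to E16.5, a step that also moved with length, 12 rose and 6 fell (28.7% and 25.4%), again without the length term. From E16.5 to P6w, 12 rose and 16 fell (26.3% and 29.8%).

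Over the V580 induction, Jag2 and Notch3 lay above E12.5_GC on every day, Heyl lay below it, and Hes1 was highest on days 6 and 8. Values of this table are FPKM as deposited, and a gene was called at a limma adjusted p below 0.05 and at least 2-fold on log2(FPKM + 1). Dll1 and Hey2 did not reach 1 FPKM in 3 of these libraries and were not tested, and 8 of the 10 genes were. The plot of FPKM by day shows all 10.

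**Figure D3:**
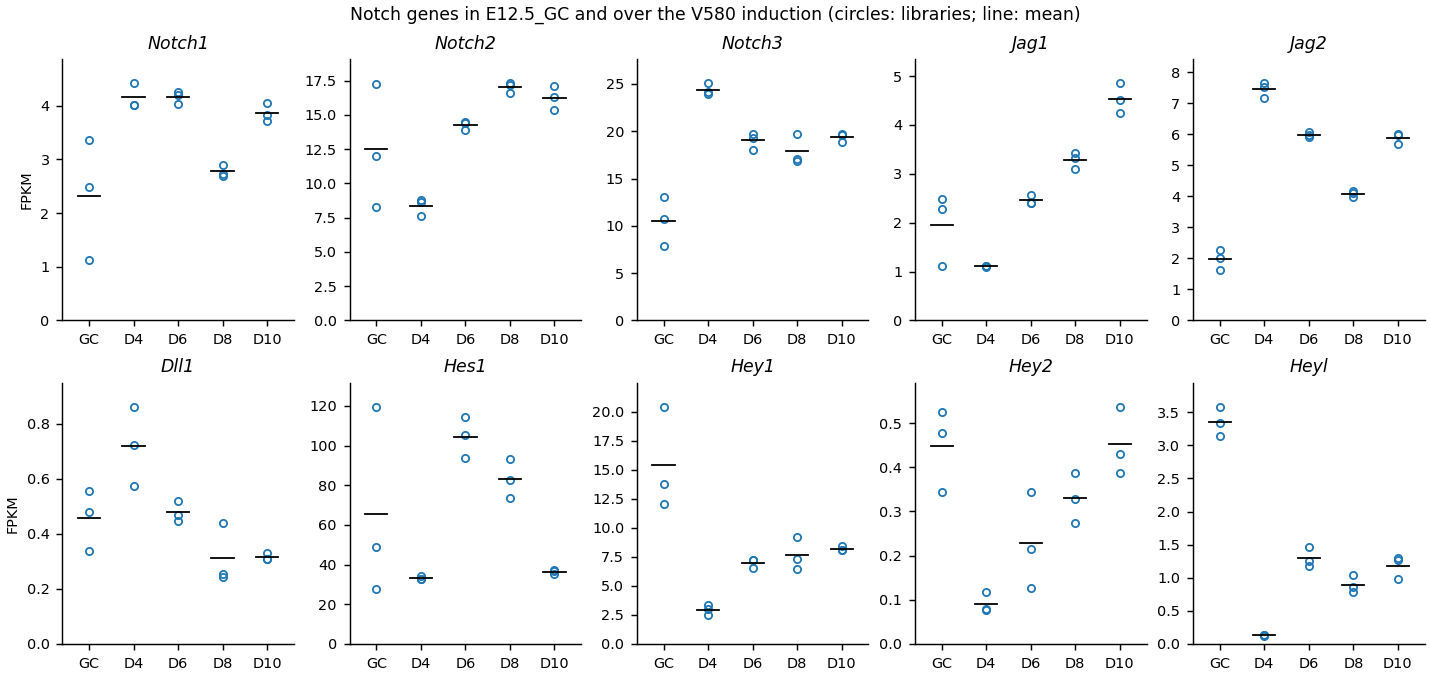
FPKM (y axis, linear, 1 scale per gene) of the 10 Notch genes in E12.5_GC and on days 4, 6, 8 and 10 of V580 (x axis), with a circle per library and a line at the mean of 3. Hes1 spans 27.7 to 119.7 FPKM in E12.5_GC, and Heyl in V580 cells stays below the lowest E12.5_GC library.

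The receptor Notch1 stood at 2.49, 1.12 and 3.36 FPKM in E12.5_GC and between 4.02 and 4.42 FPKM on day 4. Its day 4, day 6 and day 10 libraries lay above E12.5_GC, whereas those of day 8, at 2.70 to 2.90 FPKM, lay within it. Notch3 stood at 10.8, 7.88 and 13.0 FPKM in E12.5_GC, between 23.96 and 25.09 FPKM on day 4 and between 16.9 and 19.7 FPKM later. No V580 library of Notch3 overlapped E12.5_GC, and at day 4 the difference was 1.16 on the log2 scale (SE 0.12, limma adjusted p = 5.07e-07). Notch2 was at 12.02, 8.32 and 17.2 FPKM in E12.5_GC, at 7.63 to 8.80 FPKM on day 4 and at 13.9 to 17.3 FPKM later, so that each day overlapped with E12.5_GC.

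Both Jagged ligands changed over the induction, but in different ways. Jag2 stood at 2.00, 1.62 and 2.29 FPKM in E12.5_GC, 7.18 to 7.66 FPKM on day 4, 5.91 to 6.07 FPKM on day 6, 3.98 to 4.19 FPKM on day 8 and 5.71 to 6.00 FPKM on day 10. The differences of Jag2 from E12.5_GC were 1.52, 1.24, 0.78 and 1.22 on the log2 scale, and the largest limma adjusted p among these was 2.13e-07, though that of day 8 stayed below 2-fold. Jag1 stood at 1.10 to 1.12 FPKM on day 4, 2.40 to 2.56 FPKM on day 6, 3.10 to 3.42 FPKM on day 8 and 4.25 to 4.86 FPKM on day 10, against 2.49, 1.11 and 2.28 FPKM in E12.5_GC. Jag1 thus stood higher on each later day with no overlap between days, but no step between neighbouring days reached 2-fold, and from day 4 to day 6 it was 0.71 (SE 0.13, limma adjusted p = 0.000622). The third ligand, Dll1, was between 0.242 and 0.862 FPKM in all 15 libraries.

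Hes1 stood at 27.7, 48.7 and 119.7 FPKM in E12.5_GC, a span wider than that of any V580 day. In V580 cells it was at 32.7, 34.3 and 32.8 FPKM on day 4, 114.2, 93.7 and 105.4 FPKM on day 6, 73.7, 82.5 and 93.2 FPKM on day 8, and 35.3, 36.8 and 37.3 FPKM on day 10. The libraries of day 6 and day 8 lay above those of day 4 and day 10. Hes1 rose by 1.62 from day 4 to day 6 (SE 0.33, limma adjusted p = 0.00115) and fell by 1.16 from day 8 to day 10 (SE 0.33, adjusted p = 0.0148), and the SE of both came from a fit that holds the E12.5_GC libraries. All differences of Hes1 from E12.5_GC were below 2-fold.

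Hey1 was at 13.8, 12.1 and 20.4 FPKM in E12.5_GC, 2.51 to 3.32 FPKM on day 4, 6.53 to 7.22 FPKM on day 6, 6.48 to 9.20 FPKM on day 8 and 8.05 to 8.44 FPKM on day 10. No V580 library of Hey1 reached the lowest of E12.5_GC, and the differences were -2.03 on day 4 (SE 0.15, limma adjusted p = 1.28e-08) and -1.01 on day 6 (adjusted p = 3.35e-05). Heyl was at 3.34, 3.14 and 3.59 FPKM in E12.5_GC and at 0.127 to 0.139 FPKM on day 4, 1.18 to 1.46 FPKM on day 6, 0.784 to 1.04 FPKM on day 8 and 0.984 to 1.30 FPKM on day 10. All V580 libraries of Heyl lay below E12.5_GC, by -1.94 on day 4 (SE 0.07, limma adjusted p = 5.8e-12), a scale that understates the fold of so low a gene. Hey2 was at most at 0.538 FPKM in all 15 libraries. Beside these values, endothelial markers summed to a mean of 82.0 FPKM in E12.5_GC and of 10.2, 23.5, 52.2 and 59.2 FPKM on days 4, 6, 8 and 10. Kdr made up most of the later sums, with means of 17.7, 44.7 and 50.9 FPKM on days 6, 8 and 10 against 15.5 FPKM in E12.5_GC, whereas Cdh5 was at most at a mean of 3.40 FPKM on the V580 days against 28.2 FPKM. The erythroid markers summed to 4108, 1577 and 982.5 FPKM in the 3 E12.5_GC libraries and to means of at most 0.664 FPKM on the V580 days. Their part in the results was not tested.

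Against E12.5_GC, 4 of the 8 tested genes were called on day 4 (Jag2 and Notch3 higher, Hey1 and Heyl lower), where 20.4% of all 11512 genes were called. On day 6, 2 were called (Jag2 higher, Hey1 lower, background 15.2%), on day 8, 1 (Heyl lower, background 13.0%), and on day 10, 2 (Jag2 higher, Heyl lower, background 16.4%). These 4 comparisons share the E12.5_GC libraries. Between neighbouring days, Hes1, Hey1 and Heyl rose from day 4 to day 6 (background 5.08%), 0 of the 8 were called from day 6 to day 8 (2.55%), and Hes1 fell from day 8 to day 10 (1.29%). For the step from day 6 to day 8, 4 of the 8 had an unadjusted limma p below 0.05 (48.8% of all genes) and 2 passed the adjusted p alone (41.1%), namely Heyl at -0.28 and Jag2 at -0.46. By the adjusted p of limma alone, 7, 6, 6 and 7 of the 8 passed on days 4, 6, 8 and 10 against E12.5_GC, where 71.6%, 67.0%, 63.2% and 69.5% of all genes did. From day 4 to day 6 it was 7 (44.9% of all genes) and from day 8 to day 10 it was 4 (34.5%).

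Some of these calls rested on 1 library. The count on day 6 was 1 without the second V580_D6 library, with Hey1 lost. On day 8 it was 2 without the second E12.5_GC or the third V580_D8 library, with Hey1 gained, and 2 without the third E12.5_GC library, with Hes1 gained. On day 10 it was 4 without the first E12.5_GC library, with Jag1 and Hes1 gained, and 1 without the first V580_D10 library, with Heyl lost. From day 8 to day 10 it was 0 without the third V580_D8 library.

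Of the other pathway genes, 34 of 42 were tested over the induction. Dll4 and Notch4 were lower than in E12.5_GC on all 4 days, by -1.74 to -1.84 and by -1.63 to -1.67 on the log2 scale, and so was the Notch inhibitor Numb, by -1.01 to -1.25. Dlk1 was higher on days 8 and 10, by 1.44 and 1.67, and Rbpj on day 4, by 1.06. In all, 1 of the 34 was called higher and 5 lower on day 4, 0 and 5 on day 6, and 1 and 4 on each of days 8 and 10. Of all genes, 20.4%, 15.2%, 13.0% and 16.4% were called on days 4, 6, 8 and 10.

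In the first 48 h, Notch3 and Jag2 rose with time in the controls, and Dll1 was lower with V580 at 24 h. The columns taken as Vc and AM580 are headed C and X580 in the deposited table and were assigned by these names and the samples' descriptions, not by their titles, so each value given for Vc or AM580 rests on that reading. Of the 10 genes, 7 were tested, since Hey1, Hey2 and Heyl did not reach 1 FPKM in 2 libraries. In the controls, Notch3 went from 6.42 and 5.52 FPKM at 24 h to 24.9 and 23.5 FPKM at 48 h, and Jag2 from 3.63 and 3.30 FPKM to 8.31 and 8.16 FPKM. The times did not overlap for either gene, and the rises were 1.86 for Notch3 (SE 0.07, limma adjusted p = 1.08e-11) and 1.05 for Jag2 (SE 0.06, adjusted p = 4.8e-10), so that 2 of the 7 were called against a background of 7.72%. Without the second Con_24h library the count was 1, with Jag2 lost. In the same step Hes1 stood at -0.45, Dll1 at 0.74 and Notch2 at 0.69, all below 2-fold. Pluripotency markers summed to a mean of 960.2 FPKM in Con at 24 h and 570.8 FPKM at 48 h, and smooth muscle and pericyte markers, nearly all of it Acta2, to 425.0 and 119.2 FPKM. Their part in the results was not tested.

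Dll1 at 24 h was 2.71 and 2.91 FPKM in Con, 1.82 and 1.53 FPKM with Vc, 1.63 and 1.43 FPKM with AM580 and 0.613 and 0.796 FPKM with V580. Every treated library lay below both controls, and both V580 libraries below all others. The difference of V580 from Con was -1.16 on the log2 scale (SE 0.08, limma adjusted p = 6.15e-08), and with Vc and AM580 alone it was -0.51 and -0.59 (adjusted p = 0.000769 and 0.000112). V580 was also below AM580, by -0.57 (adjusted p = 0.000246). At 48 h Dll1 was 5.10 and 5.63 FPKM in Con and 3.29 and 3.39 FPKM with V580, a difference of -0.55 (adjusted p = 3.61e-05).

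Jag2 stood lower in every library given Vc, alone or within V580, and near the controls with AM580 alone. At 24 h it was 3.63 and 3.30 FPKM in Con, 2.39 and 2.42 FPKM with Vc, 3.88 and 3.83 FPKM with AM580 and 2.44 and 2.44 FPKM with V580. At 48 h the values were 8.31 and 8.16 FPKM in Con, 5.14 and 5.35 FPKM with Vc, 7.70 and 8.27 FPKM with AM580 and 5.35 and 5.62 FPKM with V580. At both times the libraries with Vc or V580 lay below all others. The Jag2 differences from Con were -0.39 and -0.56 with Vc at 24 h and 48 h, -0.38 and -0.51 with V580, and 0.12 and -0.04 with AM580 (95% intervals from -0.000938 to 0.24 and from -0.16 to 0.08), and V580 differed from AM580 by -0.50 and -0.47 (limma adjusted p = 5.34e-05 and 4.58e-05).

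Jag1 was lower with V580 than in Con, by -0.40 at 24 h (limma adjusted p = 0.00432) and by -0.55 at 48 h (adjusted p = 0.000144). Notch3 with V580 was -0.34 from Con at 24 h (adjusted p = 0.00258) and 0.29 at 48 h (adjusted p = 0.00289). Hes1 was between 11.5 and 12.9 FPKM in all 8 libraries at 24 h, where it stood within 0.04 of Con with each compound, and at 48 h it was higher with AM580, by 0.27 (adjusted p = 0.00789). Notch1 and Notch2 at 48 h stood at -0.25 and -0.33 with V580 (adjusted p = 0.0237 and 0.0163).

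**Figure D4:**
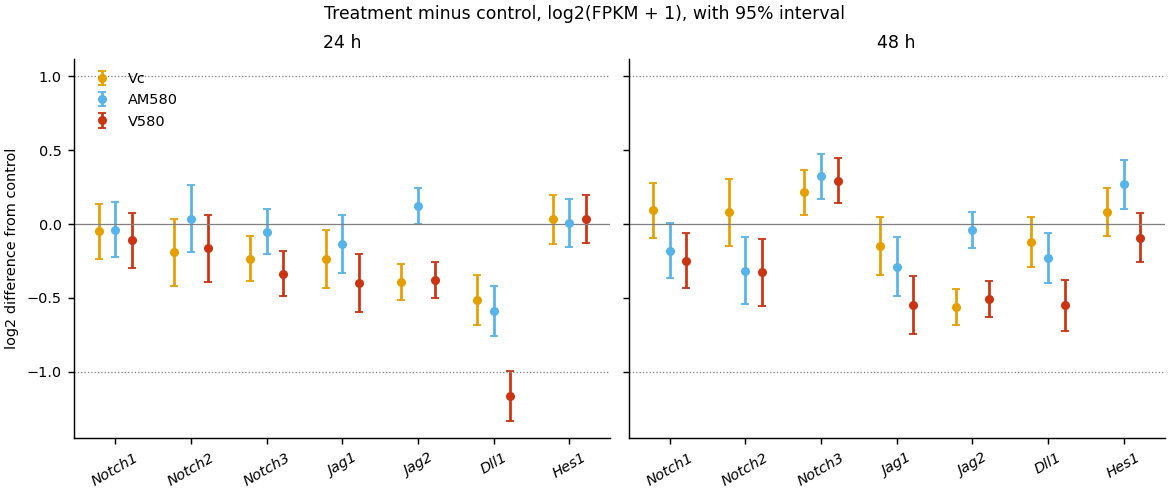
Difference of log2(FPKM + 1) from the control of the same time (y axis, bars give the 95% interval) for the 7 tested Notch genes (x axis) with Vc, AM580 and V580 at 24 h and 48 h, with dotted lines at 2-fold. Dll1 with V580 at 24 h reaches -1.16, and Jag2 lies below 0 with Vc and V580 and near 0 with AM580.

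Under the 2-fold rule, Dll1 with V580 at 24 h was the 1 call among the 7 genes in the 6 comparisons of a compound with Con. The shares of all 10644 genes called were 0.0846% with Vc, 0.404% with AM580 and 0.695% with V580 at 24 h, and 0.047%, 3.23% and 3.18% at 48 h. For V580 against AM580, 0 of 7 were called at either time (0.0658% and 0.263% of all genes). For the difference of a treatment effect between 48 h and 24 h, 0 of 7 were called with Vc (0.0376%), AM580 (1.90%) and V580 (1.83%). By the adjusted p of limma alone, the numbers against Con at 24 h were 3 with Vc, 1 with AM580 and 4 with V580, where 13.6%, 14.8% and 29.0% of all genes passed. At 48 h they were 1, 5 and 6, where 12.4%, 57.0% and 57.1% of all genes passed. For V580 against AM580 they were 3 and 3 (14.8% and 19.2% of all genes), for the controls 5 (66.0%), and for the difference of effects 1 with Vc (2.9%), 2 with AM580 (35.0%) and 2 with V580 (33.9%). At an unadjusted limma p below 0.05 the numbers were 4 with Vc and 1 with AM580 at 24 h (27.0% and 26.9% of all genes), and 2 with Vc, 5 with AM580 and 6 with V580 at 48 h (27.1%, 61.4% and 61.4%). They were 4 at either time for V580 against AM580 (28.2% and 32.4%), and 3, 4 and 2 for the difference of effects with Vc, AM580 and V580 (15.7%, 44.7% and 43.6%). Each set of comparisons shares the same 2 control libraries. Of the 29 other pathway genes tested, Dll3, a ligand known from somites, was lower with V580 at 24 h (-1.11) and at 48 h (-2.23), and at 48 h with AM580 (-1.62). Hes6, a gene of the Hes family, was lower at 48 h with AM580 (-2.04) and V580 (-2.46). Dtx1, a regulator of Notch, was lower at 48 h with V580 (-1.07).

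In the single cells of day 6, Hes1 was the most widely found of the 10 genes and Hey2 the least. The 10x sample held 15412 barcodes, all with the same suffix and none repeated, which were taken as 1 sample without a replicate. The study describes this sequencing as done in triplicate, and whether the matrix pools several runs is unknown, so its intervals hold no spread between runs. In all, 15315 cells with a median of 9281 UMIs were kept. UMIs of Hes1 made up 90.9 CPM (95% Poisson interval 89.4 to 92.3, for counting error only), followed by 17.6 CPM for Notch1, 17.5 for Notch2, 16.4 for Notch3, 9.52 for Hey1, 8.29 for Jag2, 3.19 for Jag1, 1.26 for Heyl, 0.860 for Dll1 and 0.467 for Hey2. The intervals of Notch1 and Notch2 overlapped, as did those of Notch2 and Notch3. A UMI of Hes1 was found in 40.6% of cells (exact binomial 95% interval 39.8 to 41.3), and a UMI of any of the 3 receptors in 32.1%. The share of Hes1 moved with the filter, to 50.2% of the 11555 cells with at least 1000 genes, where its level was 90.8 CPM.

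Clusters were made without the pathway's genes, and 12 were found. From the marker lists, cluster 4 (1595 cells, led by Col1a1 together with the smooth muscle genes Acta2, Actg2 and Myh11) was interstitial-like, clusters 8 and 10 (900 and 267 cells) were extraembryonic endoderm-like, and cluster 11 (77 cells) was neuron-like. The other clusters stayed unnamed, among them cluster 2 (3085 cells, led by Igfbp5 and Upk3b), cluster 7 (1024 cells, led by Wfdc2, Stra8 and Cldn3) and cluster 5 (1297 cells), which was led by mitochondrial genes at a median of 15.5% of UMIs. Median depths ran from 1462 UMIs in cluster 1 to 23270 in cluster 8, so levels are compared as CPM. Free RNA can give a gene UMIs in cells that lack it, and CPM does not correct for that.

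Notch1, Jag2 and Hes1 were all high in cluster 7. Notch1 stood at 40.3 CPM there (95% interval 37.5 to 43.3), against 14.6 CPM in cluster 2 and 10.8 CPM in cluster 8. Jag2 stood at 23.4 CPM (21.3 to 25.7), against 9.04 CPM in cluster 2 and 2.09 CPM in cluster 8. Hes1 stood at 137.2 CPM (131.9 to 142.6), the top of the 12 clusters, against 100.8 CPM in cluster 2 and 26.1 CPM in cluster 9. Cluster 5, the one led by mitochondrial genes, held like or higher levels of Jag2, at 28.9 CPM, and of Notch3, at 49.9 CPM, from 96 and 166 UMIs, and 38.2 CPM of Notch1, 37.0 CPM of Notch2 and 8.73 CPM of Jag1. With each cell thinned to 5000 UMIs, Notch1 was found in 16.4% of 991 cells of cluster 7 and 6.04% of 2962 cells of cluster 2, against 35.8% and 13.6% before thinning, and 33 and 123 cells were too shallow to be used.

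Dll1 stood at 24.6 CPM in the neuron-like cluster 11 (14.6 to 38.9, from 18 UMIs in 9 cells), 3.22 CPM in cluster 8 (2.53 to 4.05) and 0.253 CPM in cluster 2. Notch2 and Jag1 were higher in the interstitial-like cluster 4, at 30.6 and 5.60 CPM, than in cluster 2, at 15.4 and 2.68 CPM. These intervals, for counting error only, did not overlap. With cells thinned to 5000 UMIs, Notch2 was found in 14.5% of cells of cluster 4 and 7.53% of cluster 2. For Jag1 the thinned shares were 1.84% (1.23 to 2.65) and 1.55% (1.14 to 2.07), with intervals that overlapped. Hey1 stood at 17.0 CPM in cluster 2 (15.7 to 18.3), 12.3 CPM in cluster 11 (5.63 to 23.4), 2.22 CPM in cluster 8 and 1.69 CPM in cluster 9. After thinning it was found in 0 of 47 cells of cluster 11 (0 to 7.55%), so its place there is uncertain. The thinned shares were 7.56% in cluster 2, 5.47% in cluster 3, 4.54% in cluster 4 and 4.35% in cluster 1. In cluster 10 no UMI of Hey1 was found in 267 cells, where 3 UMIs would give 3.41 CPM, so its level cannot be placed below those of clusters 8 and 9. Hey2 had 76 UMIs in all, 36 of them in cluster 4.

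**Figure D5:**
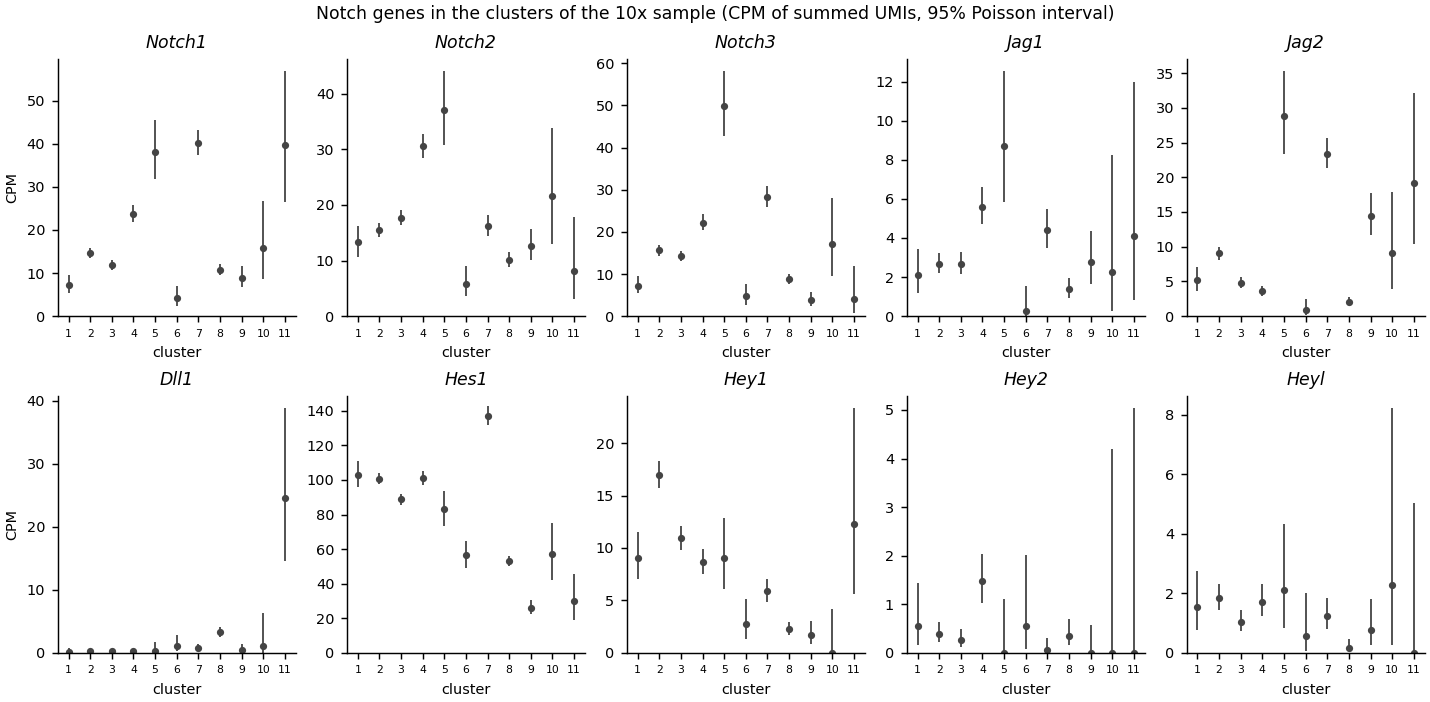
CPM of summed UMIs (y axis, bars give the 95% Poisson interval) of each Notch gene in the 11 clusters of at least 50 cells of the 10x sample (x axis). Notch1 and Hes1 stand high in cluster 7, Dll1 in cluster 11 and Hey1 in cluster 2.

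Over the 31 FPKM libraries, the genes whose log2(FPKM + 1) ran most like each member were taken by Pearson correlation among 10848 genes with a mean of at least 1 FPKM, as a description. The libraries fall into stem cell, V580 and gonad groups, which the members and these genes share. Heyl ran most like the endothelial cadherin Cdh5 (r = 0.980), Hey1 like Crtc3 (r = 0.990), Hes1 like Lats1 (r = 0.966) and Dll1 like Rims4 (r = 0.966). For the receptors the first genes were Plk2 for Notch1 (r = 0.929), Amer1 for Notch2 (r = 0.986) and Setd7 for Notch3 (r = 0.960). Jag1 ran most like Egln3 (r = 0.923), Jag2 like Sh3bgrl2 (r = 0.912) and Hey2 like Ehd2 (r = 0.917).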

How the data were processed

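For the GSCs, the authors deposited raw counts by gene symbol, which the study's methods trace to HISAT2, featureCounts and mm10. For the V580 days, E12.5_GC and the treatments, the values are FPKM as deposited, without counts. The submitters' processing notes also name RSEM, Trim Galore, FastQC and SAMtools, with no role. The 10x table was deposited as UMI counts, from Cell Ranger by the study's methods. A further table, of 10 value columns, stayed unused, and samples of germ cells and aggregates were not analysed here. The members and lists of genes were chosen with earlier results of these data known.

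Stage counts of all genes were filtered with filterByExpr, scaled with TMM and tested with the quasi-likelihood F test of edgeR 4.0.16 (R 4.3.3) in 1 model of 8 libraries, with Benjamini-Hochberg adjustment and calls below 0.05. DESeq2 1.42.0 was an alternative. The FPKM of all genes, as log2(FPKM + 1), went into limma-trend (limma 3.58.1), once for the 15 libraries of the days (1 FPKM or more in 3 libraries) and once for the 16 of the treatments (in 2 libraries), and calls also needed a 2-fold change. The length term was a spline with 4 degrees of freedom of each library's values along exon length, used as an offset. Exon lengths came from GENCODE vM21. The tests were tried on simulated data.

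In the 10x sample, barcodes of under 200 genes or over 40% mitochondrial counts were dropped. Clustering (scanpy 1.11.5, leidenalg 0.10.2) used 2000 variable genes, 20 components, 20 neighbours and a resolution of 0.5. A cluster took the name of a marker list whose mean log2 ratio to the other cells was at least 1 with at least 3 markers raised. A cluster of low median depth also needed a marker of that list among its top genes, or it stayed unnamed. A doublet caller marked 1 cell and so had not worked, no cell was removed for it, and doublets may remain. Intervals and the floor of 3 counts cover counting error only.

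Every member is named. Other pathway genes could be named where called, and some of these are given. Of the 3 genes most like each member, the first is given. Alternatives changed the scaling, filter, pseudocount, tool, covariates, libraries and fold limit.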

Additional observations from a re-analysis of the deposited data

Results flagged for a closer look

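The effect of a compound differed between 48 h and 24 h for 2 of the 7 tested genes, by limma's test of the difference itself at an adjusted p below 0.05, all of them below 2-fold. At that threshold 2.9% of all genes passed for Vc, 35.0% for AM580 and 33.9% for V580, so 2 of 7 with AM580 or V580 is no higher than the background. For Notch3 the effect at 48 h minus that at 24 h was 0.45 with Vc (adjusted p = 0.027), 0.376 with AM580 (adjusted p = 0.00993) and 0.627 with V580 (adjusted p = 0.000273). Notch3 with V580 stood at 4.63 and 4.40 FPKM at 24 h, below both controls, and at 29.5 and 30.2 FPKM at 48 h, above both controls. For Dll1 the difference of effects was 0.363 with AM580 (adjusted p = 0.0215) and 0.611 with V580 (adjusted p = 0.000804), and with V580 the lower level relative to the control was nearer to it at 48 h than at 24 h. With a pseudocount of 0.1 the difference of Dll1 with V580 was 1.20 (adjusted p = 0.000101). The same 2 control libraries of each time enter all 3 differences.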

How the results depend on the processing

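Of 2224 values of the members under alternatives, 2077 stayed on their side of the threshold, 65 lost and 82 gained a call, and 40 changed sign with no call either way. No called value changed direction. Of 278 counts of called members, 37 moved by over 1.5 times. From E12.5 to E13.5 the count of 7 was 3 with the length term, 3 with the length term and replicate block together, and 4 at 2-fold. Without the 2-fold limit the counts became 7, 6, 6 and 7 for days 4, 6, 8 and 10 against E12.5_GC and 7, 2 and 4 for the steps between days, at which 34.5% to 71.6% of all genes passed. In the treatments they became 3, 1 and 4 at 24 h and 1, 5 and 6 at 48 h for Vc, AM580 and V580 against Con, 3 and 3 for V580 against AM580, 5 for the controls, and 1, 2 and 2 for the differences of effects. A pseudocount of 0.1 gave 2 on day 8 against E12.5_GC, 1 for V580 against AM580 at 24 h and 1 for the difference of the V580 effect. Quantile normalization gave 1 from day 4 to day 6, with Hes1 kept. The cause was not tested.

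Leaving out 1 library each gave 3 to 5 from E12.5 to E13.5, 4 to 5 from E12.5 to E16.5, 6 to 8 from E13.5 to E16.5, 7 and 8 throughout at P6w against E12.5 and E16.5, 3 to 5, 1 to 2, 1 to 2 and 1 to 4 on days 4, 6, 8 and 10, 2 to 3, 0 and 0 to 1 between days, 1 to 2 for the controls, 1 for V580 against Con at 24 h and 0 in the other comparisons of the treatments. A group left with 1 library was assumed to vary like the others.

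Deviations of same-numbered libraries correlated at -0.0403 to 0.0673 in the stages, -0.431 to 0.386 over the days and -0.424 to 0.209 in the treatments, so not every pair was over 0.1 in any of these sets. Between E12.5_GC and V580_D4 all 3 pairs were (0.115, 0.295 and 0.344), and the block left that count at 4. The replicate block left 23 of 24 counts equal and gave 7 in place of 8 from E13.5 to E16.5. Of 40 values of the 10x sample under other filters, 12 moved beyond their counting interval. Groups held 2 or 3 libraries, and the 10x matrix, described by the study as a triplicate, was taken as 1 sample.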
